A study of Mus musculus with 18 samples.

Results

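The Zfp genes are mouse genes that were named for a zinc finger in their protein and then numbered, so that the symbol groups proteins by a fold and not by a shared task. Members were the genes with a single annotated symbol of Zfp followed by a number and with a probe set at log2 6 or more on at least 3 of the 18 arrays. Of 336 such symbols on the array, 99 passed, and the other 237 did not. Each member is represented by its passing probe set with the highest mean. The choice therefore used the level of each gene, and the levels are given as a description. Just inside the threshold, by the array that ranked 3 from the top, were Zfp358 at 6.03, Zfp629 at 6.04 and Zfp866 at 6.05. Just outside it were Zfp770 at 5.989, Zfp532 at 5.993 and Zfp33b at 5.996.

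The samples were full-thickness pieces of ileum, the last stretch of the small intestine, from C57BL/6 mice, an inbred laboratory strain, on postnatal days 4, 7, 9, 11, 24 and 32. Each age had 3 individual mice and each mouse 1 array, 18 arrays in all, and no mouse carried an allele or received an agent that the labels name. Days 24 and 32 (6 arrays) are set against days 4, 7, 9 and 11 (12 arrays) as after against before weaning, a division that rests on general knowledge of laboratory mice, since the labels say only that sampling began before weaning and ended after it. All values are log2 levels of Affymetrix probe sets made with RMA, a method that subtracts background, evens out the arrays and joins the probes of each set into 1 value, per the submitters' processing notes. A difference of 1 on this scale is a 2-fold change. Levels of different probe sets cannot be ranked against each other, because each probe set binds with its own strength.

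A zinc finger is a short loop of protein held around a zinc ion. In the largest class, C2H2, fingers are strung in arrays that read DNA sequence, and many such proteins carry a KRAB domain, which recruits the corepressor KAP1 (gene Trim28) and the histone methyltransferase Setdb1 to silence chromatin. A smaller class, CCCH, binds RNA. Its best known members, tristetraprolin (Zfp36) and its relatives, bind AU-rich stretches in the 3′ untranslated region of short-lived messages and bring in the CCR4-NOT deadenylase, which starts their decay. In the intestinal wall the genes are spread over epithelium, stroma, muscle, nerve and immune cells. In these bulk pieces, fewer cells of a type and less RNA per cell cannot be told apart.

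The 5 markers of bile acid transport that define the ileum averaged 9.22 to 10.03 on the later and 6.63 to 7.39 on the earlier arrays, and the 6 enterocyte markers 11.19 to 11.42 and 10.16 to 10.56. Of the 5 bile acid markers 4 were called higher after weaning and 1 lower, and 1 lay below the array medians before weaning. Arrays of the same age correlated at 0.983 or more across probe sets. The mean of the poly-A spike probe sets was 4.98 to 6.37 on the 6 later arrays and 3.53 to 4.51 on the 12 earlier arrays, and the mean of the 18S rRNA probe sets was 7.01 to 10.85 on the later and 4.93 to 8.19 on the earlier arrays, with day 24 at 10.26 to 10.85. The mean of the hybridization spike probe sets was 9.647 to 9.985 on the later and 8.745 to 9.622 on the earlier arrays. Every later array thus lay above every earlier one in these spikes. The largest gap between these means split the arrays into a higher group of 10, which held all 6 later and 4 earlier arrays, and a lower group of 8 earlier arrays. Xist, the RNA that coats the silenced X in females, was low on 5 of 6 later and 3 of 12 earlier arrays. An array of day 7 and an array of day 9 carry the same animal number in their titles, and each was kept as a sample of its own. The part of these in the results was not tested beyond the fits given below.

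Most Zfp genes were at a lower level after weaning. On days 24 and 32 against days 4 to 11, 60 of 99 members (60.6%) fell and 11 (11.1%) rose at an adjusted p below 0.05 (limma, Benjamini-Hochberg over the 8630 genes tested), while 28 passed in neither direction. Over all 8630 genes, 41.8% were called lower and 31.1% higher. The share called in either direction was 71.7% of the members and 72.9% of all genes tested. The median difference of the members was -0.37 on the log2 scale, against -0.07 over all genes. The members' differences lay between -2.21 for Zfp618 and 0.78 for Zfp672. A fall of at least 2-fold was called for 11 of 99 members and for 997 of the 8630 genes tested. No member rose by 2-fold, while 655 of all genes did. Of the 11 members, 9 reached the level threshold at the earlier ages only, a choice that favours genes that were higher there.

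**Figure D1:**
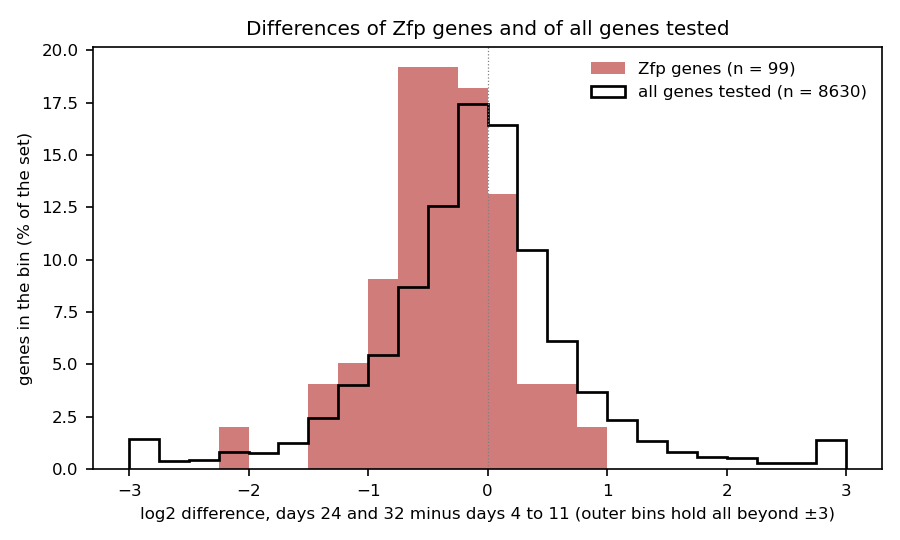
Histogram of the log2 difference of days 24 and 32 minus days 4 to 11 for the 99 Zfp genes (filled) and all 8630 genes tested (outline), each as percent of its set in bins of the difference. The Zfp genes centre on -0.37 and end at 0.78 on the right, while all genes centre on -0.07 and extend to the outer bins on both sides.

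The level threshold shapes these counts, because a gene that reached it on the arrays of a single stage tends to be higher there by that choice. The threshold asked for 3 arrays, of 12 earlier or of 6 later ones, so a gene near log2 6 with little change passed more easily at the earlier ages. Zfp326 (difference -0.02) and Zfp335 (-0.08) passed at the earlier ages only and were not called. There were 32 members that reached log2 6 on 3 arrays of the earlier ages only, and 28 of them were called lower, while 5 members reached it at the later ages only, and 4 of them were called higher. The remaining 62 reached it in both stages, and of these 32 (51.6%) were called lower and 7 (11.3%) higher. Among all 7156 genes that reached it in both stages, 37.8% were called lower and 31.6% higher. With no filter on level, 144 of the 336 Zfp symbols (42.9%) were called lower and 47 (14%) higher, with a median of -0.14, against 27.5% and 28.8% of 18193 genes, whose median was 0.04. Among the 237 symbols below the threshold, where levels lie near background, 85 were lower and 36 higher. Other genes below the threshold were not counted apart, so these counts have no like comparison.

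The members followed the ages mainly as a step between day 11 and day 24, as did the genes tested as a whole. This step was called in either direction in 58.6% of members and 59.2% of all genes tested. The highest of the 6 age means was on day 4 for 8 members, day 7 for 22, day 9 for 33, day 11 for 14, day 24 for 9 and day 32 for 13. The lowest was on day 24 for 36 members and on day 32 for 38, so that 74 of 99 had their lowest mean after weaning. Ages of the highest and lowest mean were not counted over all genes. An F test over the 6 ages was passed by 70 members (70.7%), against 68.3% of all genes tested. The 6 later arrays lay wholly below the 12 earlier ones in 29 members (21.7% of all genes tested did so) and wholly above them in 5 (15.5% of all genes).

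**Figure D2:**
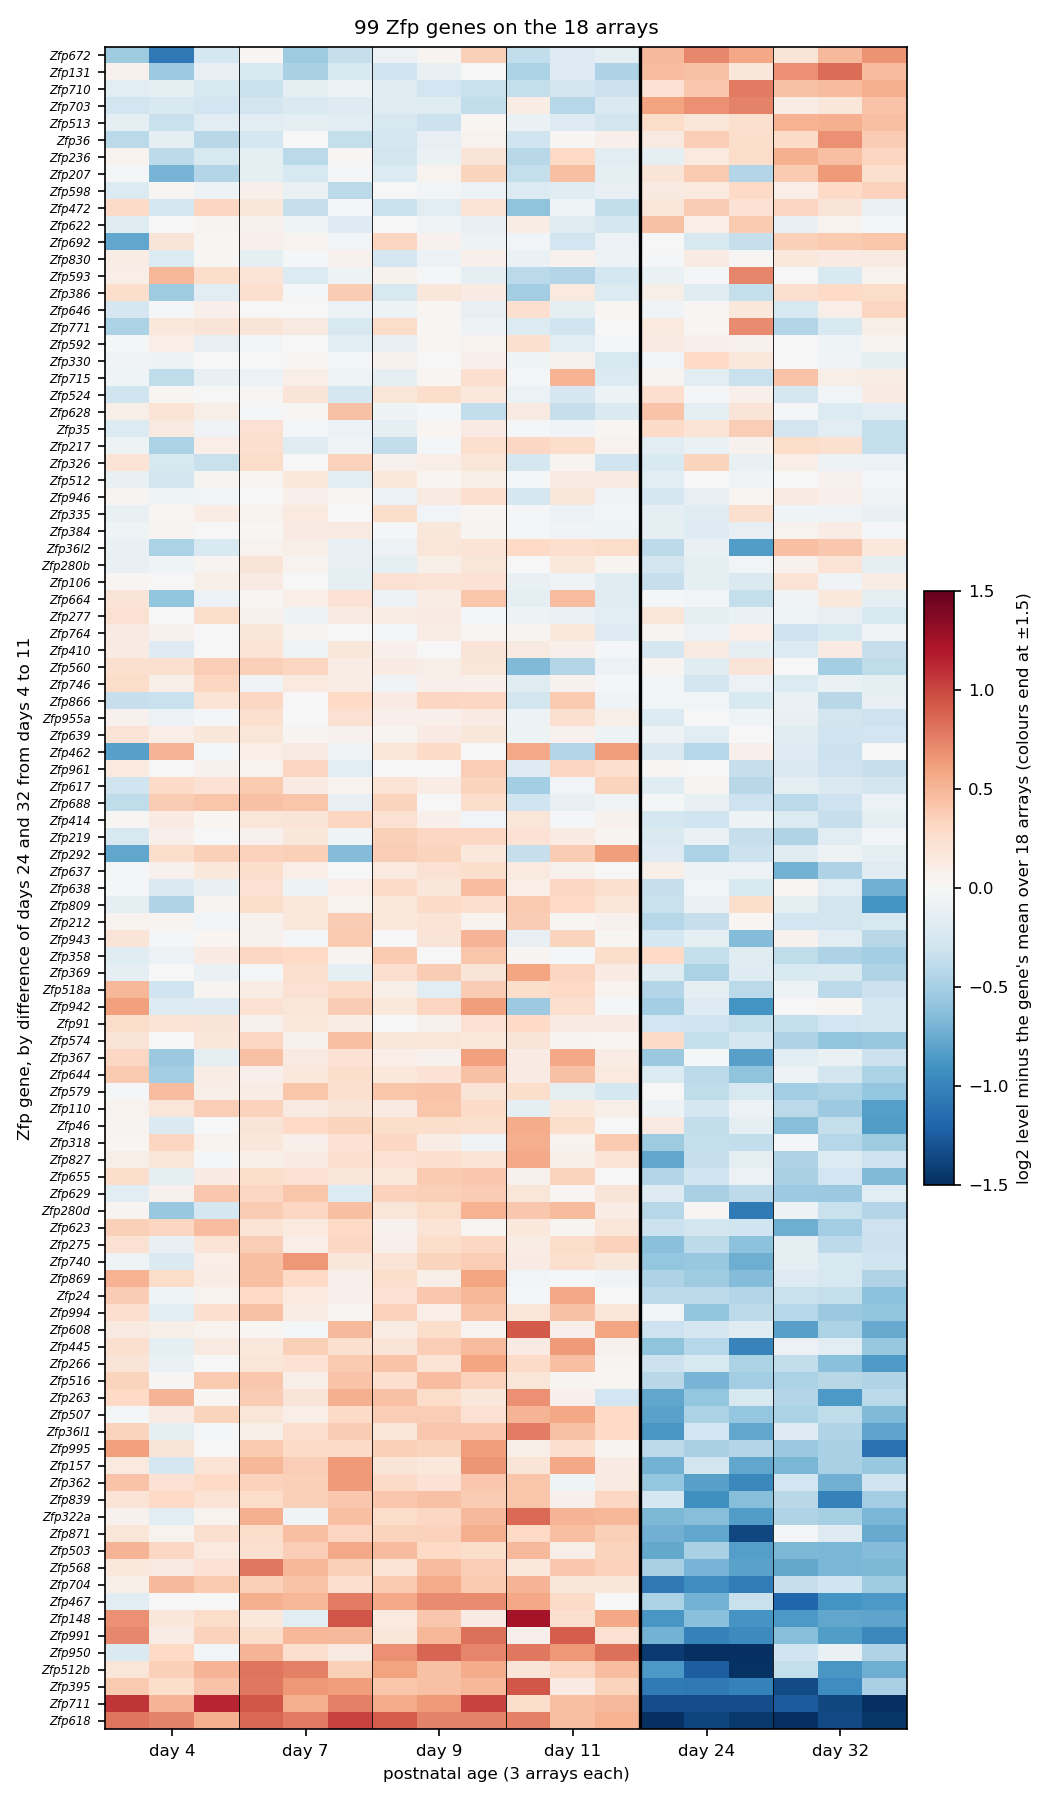
Heat map of the 99 Zfp genes (rows, ordered by the difference of days 24 and 32 from days 4 to 11) on the 18 arrays (columns, 3 per age), coloured by log2 level minus the gene's mean over all arrays. Below the first rows, where the later arrays are red, most rows turn from red to blue at the line between day 11 and day 24.

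Among members listed for roles in development and mesenchyme, 9 of 17 were measured, of which 7 fell (77.8%, against 41.8% of all genes), 1 rose (11.1%, against 31.1%) and 1 was not called. Their median difference was -1.02, and 5 of them fell by at least 2-fold. Of the 9, however, 7 reached the level threshold before weaning only, among them 4 of the 5 falls of at least 2-fold. Such members tend to be higher before weaning by that choice, so that the count and the median support nothing about the list. Zfp711 is an X-linked protein whose human form brings the histone demethylase PHF8 to promoters. It had 6.17, 5.61 and 6.24 on day 4, 6.03, 5.64 and 5.86 on day 7, 5.66, 5.74 and 6.11 on day 9, 5.36, 5.54 and 5.58 on day 11, 3.77, 3.77 and 3.77 on day 24, and 3.85, 3.73 and 3.30 on day 32. Every later array was lower than every earlier one, and the later levels were at or below the array medians of 3.88 to 3.97, where a level cannot be separated from background, so the size of the fall is not settled. The difference as measured was -2.10 ± 0.11 (SE, adjusted p = 2.93e-12 in limma). With the level of Xist as a covariate it was -2.19.

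Zfp467, which favours the fat over the bone lineage in marrow stromal cells, was 5.32, 5.72 and 6.17 (lowest, median and highest array) after weaning and 6.33, 7.02 and 7.28 before. It fell by 1.12 ± 0.09, and it fell again between the later ages, to 5.52 on day 32 against 6.00 on day 24 (difference -0.48 ± 0.14, adjusted p = 0.0367). Zfp704, a glucocorticoid-induced gene, was 5.39, 5.73 and 6.16 after and 6.55, 6.86 and 7.01 before weaning (difference -1.05 ± 0.08, adjusted p = 5.07e-10). The groups of arrays did not overlap in either gene.

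Zfp568 encodes a KRAB protein that in the mouse embryo silences a placental transcript of Igf2. It was 5.73, 5.85 and 6.05 after weaning against 6.67, 6.90 and 7.33 before, a fall of 1.03 ± 0.07 (adjusted p = 4.88e-10). Zfp503 and Zfp703 are relatives of the fly genes elbow and no ocelli and act as corepressors in development. They moved in opposite directions. Zfp503 was 6.50, 6.65 and 6.85 after and 7.42, 7.65 and 7.90 before weaning (difference -1.02 ± 0.08, adjusted p = 1.86e-09). Zfp703 was 8.68, 9.09 and 9.31 after and 8.14, 8.34 and 8.68 before weaning (difference 0.69 ± 0.08, adjusted p = 1.81e-07). Its lowest later array lay within the earlier range. Zfp516 (-0.74), which takes part in the brown fat programme, and Zfp219 (-0.33) also fell, whereas Zfp462 had -0.27 and was not called (adjusted p = 0.154). Of the remaining names on this list, Zfp423, a factor of fat and cerebellum, stood at 3.87 on its array ranked 3 from the top, Zfp521 at 5.28 and the imprint guardian Zfp57 at 3.67, all below the threshold.

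**Figure D3:**
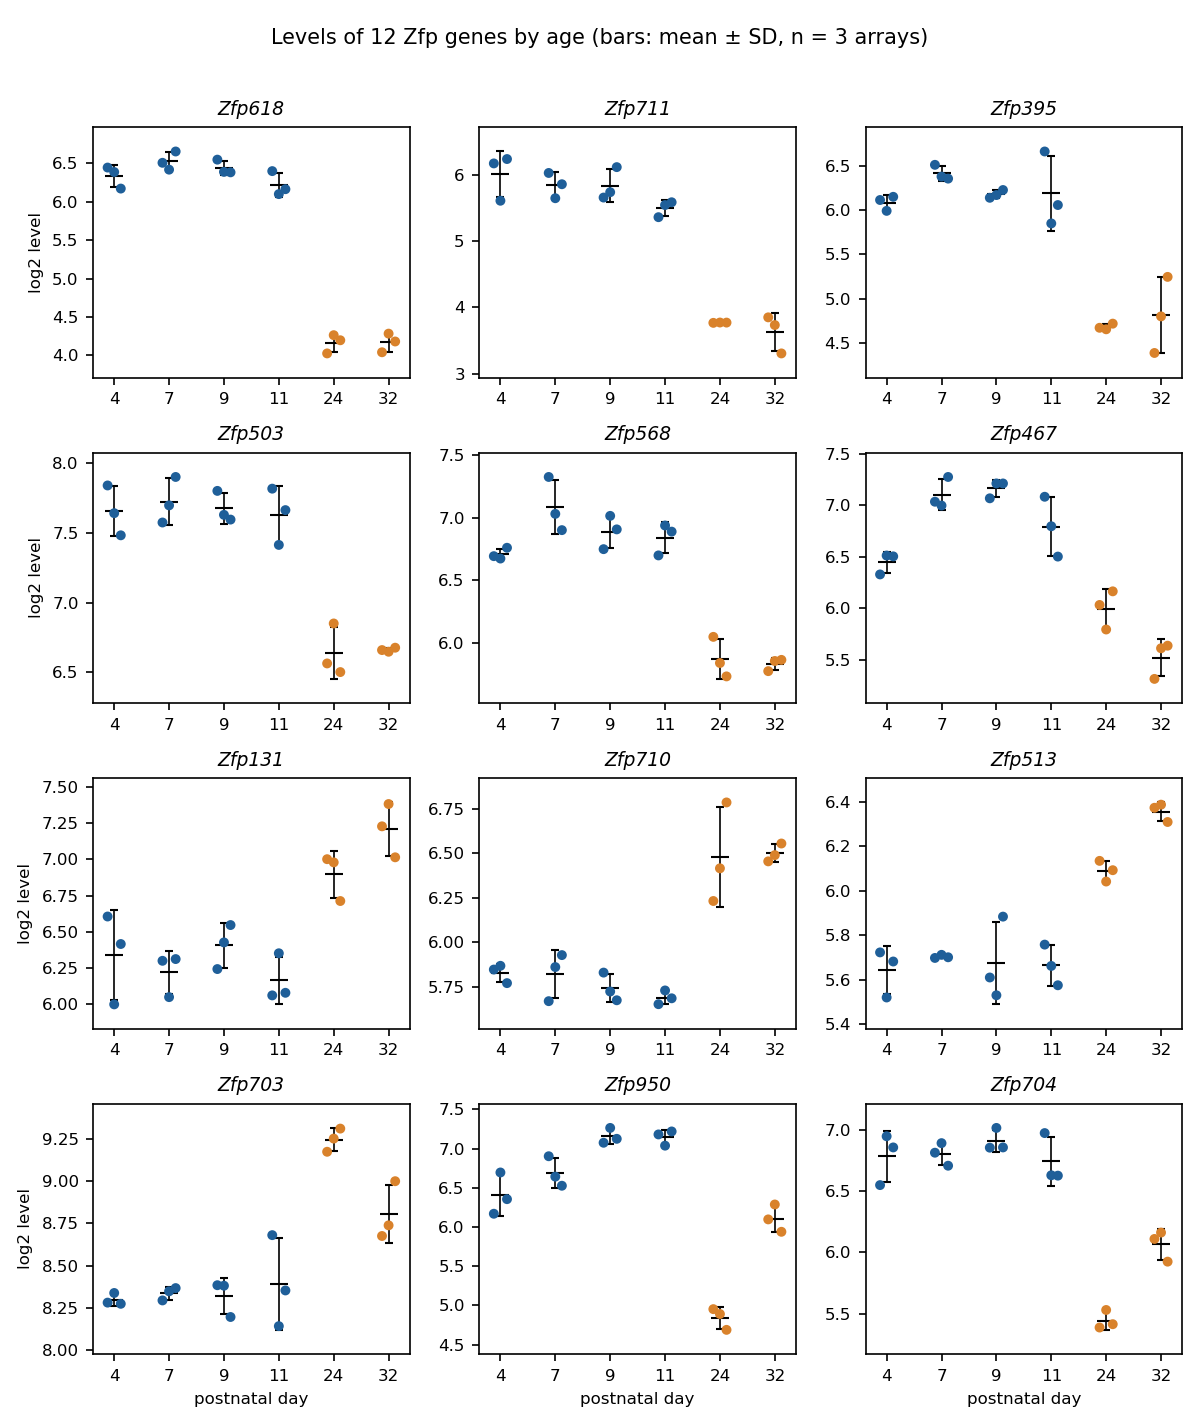
Log2 levels of 12 Zfp genes on each array (points) by postnatal day, with mean ± SD over 3 arrays (bars). Days 24 and 32 are orange and days 4 to 11 blue. In the upper 6 panels every orange point lies below every blue one, in Zfp131, Zfp710 and Zfp513 every orange point lies above, and in Zfp950 and Zfp704 day 24 is lower than day 32.

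Of members listed as widely expressed transcription and chromatin factors, 20 of 34 were measured, and 11 fell (55%, against 41.8% of all genes), 1 rose (5%, against 31.1%) and 8 were not called, with a median of -0.30. In this list 17 reached the level threshold in both stages, 10 of them called lower. Zfp618, whose human protein partners the methylcytosine reader UHRF2, showed the largest estimated fall, though its later levels also lay near the array medians and its order against Zfp711 is not settled. It had 6.44, 6.38 and 6.17 on day 4, 6.50, 6.42 and 6.65 on day 7, 6.54, 6.39 and 6.38 on day 9, 6.40, 6.10 and 6.16 on day 11, 4.03, 4.26 and 4.20 on day 24, and 4.04, 4.28 and 4.18 on day 32. The highest of the 6 later arrays was 4.28 and the lowest of the 12 earlier ones 6.10. The difference was -2.21 ± 0.07 (adjusted p = 4.06e-15), or 4.63-fold lower after weaning, and it was 0.01 between days 32 and 24.

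Zfp148, a factor that binds GC-rich promoters, was 7.56, 7.63 and 7.82 after weaning and 8.29, 8.71 and 9.70 before it (difference -1.20 ± 0.15, adjusted p = 9.01e-07). Its other passing probe sets did not do the same: the difference was 0.37 ± 0.09 in 1 of them (adjusted p = 0.00127 over passing probe sets) and 0.09 ± 0.09 in the other, and the mean of the 3 gave -0.25. Zfp263 was 5.82, 6.17 and 6.44 after and 6.39, 6.97 and 7.37 before weaning (difference -0.83 ± 0.13, adjusted p = 1.16e-05). Zfp91, an E3 ligase of the noncanonical NF-kB pathway, was 8.38, 8.45 and 8.48 after and 8.76, 8.89 and 9.04 before (difference -0.46 ± 0.06, adjusted p = 5.73e-07), with no overlap. Zfp809, which silences integrated retroviruses in mouse embryonic stem cells, fell by 0.37 ± 0.11 (adjusted p = 0.00495), and its arrays overlapped, at 6.05, 6.73 and 7.21 after against 6.50, 7.12 and 7.33 before weaning. With the hybridization group as a block, its adjusted p was 0.0915, and without the day 32 arrays 0.184. Zfp513 was the member of this list that rose, at 6.04, 6.22 and 6.39 after and 5.52, 5.69 and 5.88 before weaning (difference 0.55 ± 0.06, adjusted p = 2.65e-07). Zfp281, at 5.97 on its array ranked 3 from the top, was just under the threshold.

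Of members listed for roles in RNA, the ribosome or splicing, 9 of 13 were measured. Whether Zfp871, which is on this list, has such a role was not checked here. In the fit 3 were called higher (33.3%, against 31.1% of all genes), 2 lower (22.2%, against 41.8%) and 4 not, with a median of 0.06. The 3 called higher include Zfp207, for which no direction can be given because its probe sets disagree, and 8 of the 9 reached the level threshold in both stages. Zfp598, the ligase that marks collided ribosomes, was 8.03, 8.16 and 8.28 after and 7.54, 7.84 and 8.02 before weaning (difference 0.33 ± 0.07, adjusted p = 0.000431). Its later arrays lay just above all earlier ones. Zfp622, a counterpart of the yeast factor Rei1 of large ribosomal subunit assembly, was 9.69, 9.87 and 10.24 after and 9.55, 9.75 and 9.91 before weaning, with a difference of 0.21 ± 0.07 (adjusted p = 0.0157). This call was lost without the day 24 arrays (0.04, adjusted p = 0.696), with the mean of its passing probe sets (adjusted p = 0.0682), with the hybridization group as a block (0.0753), with Xist as a covariate (0.107) and in the higher hybridization group alone (0.150).

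Zfp207 (BuGZ), a protein of the mitotic spindle, was 8.61, 9.37 and 9.69 after and 8.35, 8.91 and 9.51 before weaning, a difference of 0.36 ± 0.14 (adjusted p = 0.0295). Its other passing probe sets ran the opposite way, at -2.02 ± 0.29 and -0.60 ± 0.10, and the mean over the 3 was -0.76, opposite in sign to the probe set used. Zfp871 was 6.98, 7.60 and 8.31 after and 8.40, 8.66 and 8.88 before (difference -0.96 ± 0.10, adjusted p = 1.73e-07). Its other probe sets gave -2.26 ± 0.28 and 0.01 ± 0.12. Zfp638, a partner of the HUSH silencing complex, had 5.65, 6.18 and 6.40 after and 6.16, 6.51 and 6.83 before (difference -0.37 ± 0.10, adjusted p = 0.00218). In the higher hybridization group alone its adjusted p was 0.159.

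Members on none of these lists numbered 58, with differences between -1.47 and 0.78. Of these 39 fell (67.2%, against 41.8% of all genes), 5 rose (8.62%, against 31.1%) and 14 were not called. Many of the 58, Zfp395 and Zfp672 among them, reached the level threshold in 1 stage only, a choice that favours a higher level there. Most of the 32 members that reached it before weaning only are among these 58. The shares are therefore in part set by the threshold. Zfp395, whose human protein was found at a regulatory region of the huntingtin gene, was 4.38, 4.69 and 5.25 after weaning and 5.85, 6.16 and 6.66 before (difference -1.47 ± 0.11, adjusted p = 1.54e-09). Zfp512b, whose human form restrains TGF-beta signalling, was 4.57, 5.19 and 5.71 after and 6.23, 6.51 and 6.86 before (difference -1.38 ± 0.10, adjusted p = 7.77e-10). Zfp991 had 4.99, 5.11 and 5.36 after against 6.07, 6.42 and 6.91 before (difference -1.28 ± 0.13, adjusted p = 3.83e-08). Zfp322a had 5.21, 5.39 and 5.59 after against 5.87, 6.43 and 6.89 before (difference -0.95 ± 0.09, adjusted p = 1.94e-08). In all 4 the later arrays were below every earlier array. Of the 12 falls named here as the largest without overlap, Zfp148, Zfp503 and Zfp871 reached the threshold in both stages and the other 9 in the earlier stage only.

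The rises were smaller. Zfp131, a BTB zinc finger protein, had 6.61, 6.00 and 6.42 on day 4, 6.30, 6.05 and 6.31 on day 7, 6.24, 6.43 and 6.55 on day 9, 6.06, 6.35 and 6.08 on day 11, 7.00, 6.98 and 6.71 on day 24, and 7.23, 7.38 and 7.01 on day 32. The lowest later array was 6.71 and the highest earlier one 6.61. The difference was 0.77 ± 0.09 (adjusted p = 6.58e-07), or 1.71-fold higher after weaning. Zfp710 was 6.23, 6.47 and 6.78 after and 5.65, 5.75 and 5.93 before weaning (difference 0.72 ± 0.07, adjusted p = 6.87e-08). Zfp672 had the largest estimate, 0.78 ± 0.12 (adjusted p = 7.26e-06), but its arrays overlapped, at 5.93, 6.27 and 6.46 after against 4.66, 5.50 and 6.09 before. Zfp710, Zfp513 and Zfp672 reached the threshold only after weaning.

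Tristetraprolin and its relatives, the RNA-binding branch, did not move together. Zfp36 was 7.66, 7.91 and 7.65 on day 4, 7.80, 8.06 and 7.71 on day 7, 7.82, 7.94 and 8.12 on day 9, 7.76, 8.08 and 8.14 on day 11, 8.20, 8.44 and 8.33 on day 24, and 8.35, 8.75 and 8.45 on day 32. It rose by 0.53 ± 0.09 (adjusted p = 1.98e-05), with every later array above every earlier one, while the step of day 24 against day 11 missed the threshold (0.33 ± 0.14, adjusted p = 0.0514). Zfp36l1 was 9.57, 9.11 and 9.21 on day 4, 9.33, 9.49 and 9.63 on day 7, 9.42, 9.64 and 9.64 on day 9, 10.01, 9.68 and 9.54 on day 11, 8.37, 8.95 and 8.46 on day 24, and 9.05, 8.79 and 8.45 on day 32. It fell by 0.85 ± 0.11 (adjusted p = 1.52e-06), again with no overlap, and by 1.15 ± 0.15 in its other passing probe set.

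Zfp36l2 separated the later ages from each other. It was 9.47, 9.10 and 9.36 on day 4, 9.64, 9.66 and 9.46 on day 7, 9.49, 9.76 and 9.79 on day 9, 9.88, 9.84 and 9.85 on day 11, 9.19, 9.47 and 8.74 on day 24, and 10.04, 9.99 and 9.74 on day 32. Day 24 was lower than day 11 by 0.72 ± 0.15 (adjusted p = 0.00061) and day 32 was higher than day 24 by 0.79 ± 0.15 (adjusted p = 0.003). The mean of both later ages therefore differed from the earlier ages by -0.08 ± 0.09 (adjusted p = 0.454). Without the day 24 arrays the difference was 0.31 (adjusted p = 0.00856), and without the day 32 arrays it was -0.47 (adjusted p = 0.0032). Zfp36l3, the remaining relative on the list, is not among the members.

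**Figure D4:**
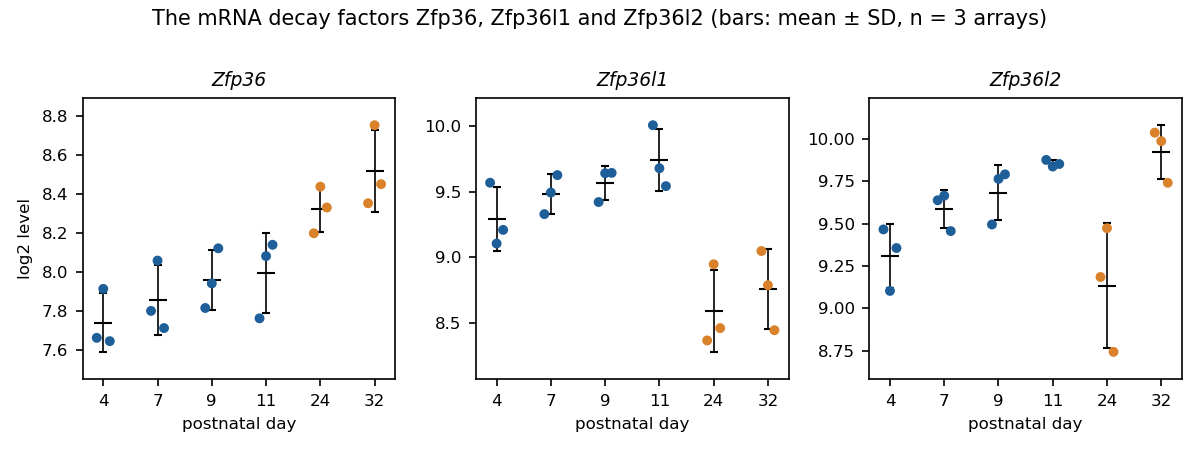
Log2 levels of Zfp36, Zfp36l1 and Zfp36l2 on each array (points) by postnatal day, with mean ± SD over 3 arrays (bars), days 24 and 32 in orange and days 4 to 11 in blue. The orange points lie above the blue ones for Zfp36 and below them for Zfp36l1. For Zfp36l2 day 24, at 8.74 to 9.47, is below day 32, at 9.74 to 10.04.

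On day 11 against day 4, 2 members were called higher (1.34% of all genes tested) and 1 lower (1.54%), which makes 3.03% of the members in either direction, against 2.89% of all genes. The median difference of the members was 0.05. At an unadjusted p below 0.05, 12 members were higher and 8 lower, and with array weights 6 and 5 were called. Zfp950 was 7.18, 7.04 and 7.22 on day 11 and 6.17, 6.70 and 6.36 on day 4 (difference 0.74 ± 0.14, adjusted p = 0.00726). Zfp322a was 6.89, 6.55 and 6.54 on day 11 against 6.11, 5.87 and 6.10 on day 4 (difference 0.64 ± 0.14, adjusted p = 0.0241). Zfp560 was 5.23, 5.45 and 5.79 on day 11 against 6.13, 6.13 and 6.25 on day 4 (difference -0.68 ± 0.15, adjusted p = 0.0201). The 3 day 11 arrays did not overlap with the 3 day 4 arrays in these genes. With only the 6 arrays of these ages in the fit, none of the 3 was called (adjusted p = 0.0848, 0.096 and 0.108), and without day 4 replicate 2 or 3 or day 11 replicate 1 neither Zfp322a nor Zfp560 was called, nor was Zfp560 without day 11 replicate 2 (adjusted p = 0.0643 to 0.119).

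The step across weaning, day 24 against day 11, was called lower in 47 members (32.3% of all genes tested) and higher in 11 (26.9%), with a median of -0.35 against -0.04 over all genes. The largest was in Zfp950, which had 4.95, 4.89 and 4.69 on day 24 and 7.18, 7.04 and 7.22 on day 11 (difference -2.30 ± 0.14, adjusted p = 1.52e-10), 4.93-fold lower on day 24. Zfp618 was lower by -2.06 ± 0.12, Zfp711 by -1.73 ± 0.17 and Zfp704 by -1.30 ± 0.12. On the rising side, Zfp703 was 9.17, 9.25 and 9.31 on day 24 and 8.68, 8.14 and 8.35 on day 11 (difference 0.85 ± 0.12, adjusted p = 1.2e-05). Zfp672 rose by 0.83 ± 0.19, Zfp710 by 0.79 ± 0.12 and Zfp131 by 0.73 ± 0.15. Between the fits, 55 members were called both in this step and between the stages, 16 between the stages only, and 3 in the step only (Zfp35, Zfp36l2 and Zfp593). The same split was not counted over all genes tested. Without day 24 replicate 3, 7 members were called higher in this step. The 2 comparisons share arrays, so these counts are no independent check of each other.

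On day 32 against day 24, 8 members were called higher (6.11% of all genes tested) and 6 lower (6.22%). In 6 members (6.06%, against 2.91% of all genes tested) day 24 was called lower than day 11 and day 32 higher than day 24: Zfp36l2, Zfp512b, Zfp704, Zfp740, Zfp871 and Zfp950. Whether the members differ from other genes in this was not tested. Zfp950 had 6.10, 6.29 and 5.94 on day 32 against 4.95, 4.89 and 4.69 on day 24 (difference 1.26 ± 0.14, adjusted p = 9.44e-06), and 1 of its 3 day 32 arrays (6.29) lay above the lowest day 4 array (6.17). Zfp704 had 6.11, 6.16 and 5.92 on day 32 against 5.39, 5.53 and 5.42 on day 24 (difference 0.62 ± 0.12, adjusted p = 0.00336), and with the mean of its passing probe sets the difference was 0.31 (adjusted p = 0.316). Zfp871 had 8.31, 8.14 and 7.59 on day 32 and 7.62, 7.56 and 6.98 on day 24 (difference 0.63 ± 0.17, adjusted p = 0.0234). With the mean of its passing probe sets the difference was 0.49 (adjusted p = 0.118), and with only these ages in the fit its adjusted p was 0.132. The 18S rRNA probe sets, at 7.01 to 7.96 on day 32 and 10.26 to 10.85 on day 24, moved between the same ages, and their part in the result was not tested.

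The reverse course was called in Zfp35 and Zfp703 (2.02% of members, 1.97% of all genes). Zfp35 had 6.12, 6.23 and 6.03 on day 32 against 6.67, 6.59 and 6.76 on day 24 (difference -0.55 ± 0.11, adjusted p = 0.00443), and Zfp703 had 8.68, 8.74 and 9.00 against 9.17, 9.25 and 9.31 (difference -0.44 ± 0.12, adjusted p = 0.0265). Zfp46 and Zfp467 were lower on day 24 than on day 11 and lower again on day 32 (2.02% of members, 2.4% of all genes). Zfp110 (-0.45 ± 0.13, adjusted p = 0.0273) and Zfp637 (-0.43 ± 0.12, adjusted p = 0.0276) fell between the later ages with no call in the step before. This comparison depended on single arrays: without day 24 replicate 3, 3 members were called higher and 1 lower. Leaving out day 9 replicate 2, day 24 replicate 1 or any of the 3 day 32 arrays also moved a count by over 1.5 times, within 3 to 8 higher and 1 to 8 lower. The calls of Zfp871, Zfp703, Zfp110 and Zfp637 were lost without day 24 replicate 3 (adjusted p = 0.0511 to 0.128) and with only these ages in the fit (adjusted p = 0.0878 to 0.14). They were also lost without single other arrays: day 32 replicate 1 or 2 for Zfp871, these or day 24 replicate 2 for Zfp703, day 24 replicate 1 or day 32 replicate 2 or 3 for Zfp110, and day 24 replicate 1 or day 32 replicate 1 or 2 for Zfp637 (adjusted p = 0.0528 to 0.138).

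A set of 23 members was called in none of the 4 comparisons. The share of all genes tested without a call in these comparisons was not counted, so the 23 are given as a description. The 5 with the largest p of the F test were Zfp646 (adjusted p = 0.885), Zfp592 (0.822), Zfp335 (0.728), Zfp946 (0.574) and Zfp217 (0.569), in limma. Zfp646 was 5.77, 6.06 and 6.33 after and 5.75, 6.00 and 6.26 before weaning, a difference of 0.08 ± 0.08. Zfp592, a subunit of a corepressor complex with other zinc finger proteins, was 6.05, 6.17 and 6.24 after and 5.96, 6.10 and 6.36 before (difference 0.06 ± 0.07). Its other passing probe set was called higher after weaning (0.52 ± 0.07, adjusted p = 4.22e-06 over passing probe sets), and with the mean of both its F test had an adjusted p of 0.00975, so that the gene cannot be called flat. Zfp335 (difference -0.08 ± 0.07), Zfp946 (-0.05 ± 0.07) and Zfp217 (-0.01 ± 0.12) had overlapping arrays as well. Of the transcription and chromatin factors, Zfp384 (-0.08 ± 0.05) and Zfp410 (-0.18 ± 0.08), the activator of Chd4, were also among the 23, and both were picked out after their values were seen. The other passing probe set of Zfp410 was called lower (-0.30 ± 0.10, adjusted p = 0.0142).

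Several members have more than 1 passing probe set, which can read another part of the transcript. In 21 members there were 29 such probe sets besides the one used. Of 22 that belong to called members, 16 had the same sign and 12 were called in the same direction. Beside Zfp148, Zfp207 and Zfp871, the disagreement reached Zfp644, whose 3 gave -0.51, -0.03 and -1.20. Of the 28 members with no call between the stages, 5 had another passing probe set that was called. These were Zfp462 (-1.33 ± 0.10), Zfp106 (0.57 ± 0.13), Zfp592 (0.52 ± 0.07), Zfp410 (-0.30 ± 0.10) and Zfp292, whose 3 others gave -0.53 to -0.62, so that a member without a call is not shown to be without a change. In Zfp503 (-0.59 ± 0.13) and Zfp704 (-0.92 ± 0.21) the other probe set was called lower as well. These genes other than the named ones were picked after their values were seen. Which transcript forms the probe sets read was not analysed here.

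Other zinc finger families, chosen by symbol, are set beside the Zfp genes. Of 22 Zbtb genes, BTB zinc finger factors, 7 rose and 8 fell. Of 10 Klf genes, Krüppel-like factors, 7 rose and 2 fell. Of 10 Zc3h genes, further CCCH proteins, 4 rose and 3 fell. Of 7 Zkscan and Zscan genes, whose proteins carry a SCAN domain, 5 fell and the other 2 were not called. Their medians were 0.01, 0.40, 0.10 and -0.35, beside -0.37 in the Zfp genes. Over all genes tested 31.1% rose and 41.8% fell. The difference between families was not tested.

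**Figure D5:**
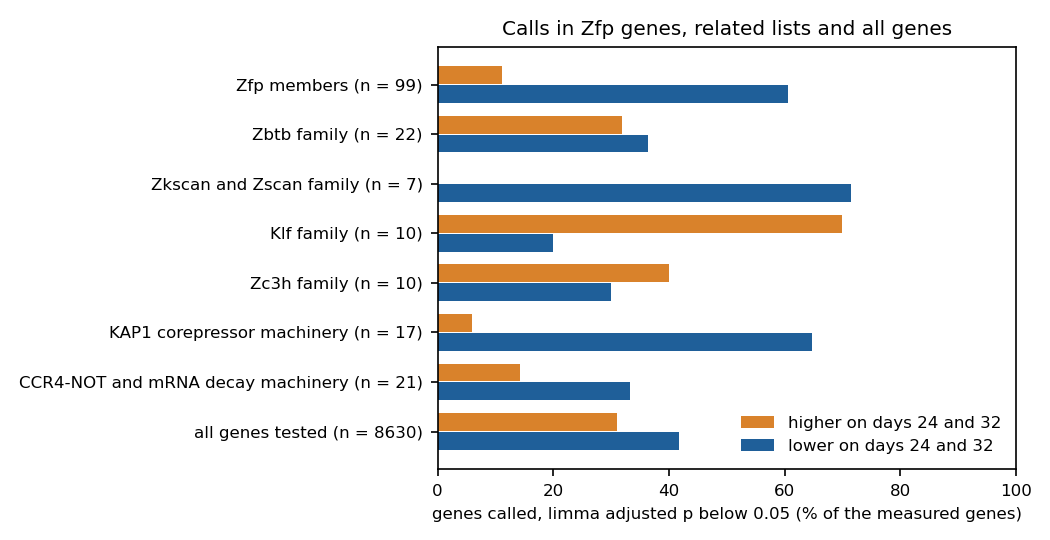
Percent of measured genes called higher (orange) or lower (blue) on days 24 and 32 than on days 4 to 11 at a limma adjusted p below 0.05, for the Zfp genes, related families, the partner machineries and all genes tested. In the Zfp genes 60.6% were lower and 11.1% higher, in the Klf family 20% and 70%, and in all genes 41.8% and 31.1%.

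Of the machinery that KRAB zinc finger proteins recruit, 17 of 19 listed genes were measured. After weaning 11 fell (64.7%, against 41.8% of all genes), 1 rose (5.88%, against 31.1%) and 5 were not called, with a median of -0.37, and the difference from all genes was not tested. Dnmt3a, a DNA methyltransferase that sets new marks, was 5.14, 5.57 and 5.82 after and 7.00, 7.50 and 7.95 before weaning (difference -1.93 ± 0.09, adjusted p = 1.08e-12). It reached log2 6 on 12 earlier and 0 later arrays, so it entered the test only through the stage where it was higher. The next 2 genes reached that level on all 6 later and all 12 earlier arrays. Cbx1, the heterochromatin protein HP1 beta, fell by 0.79 ± 0.09 (adjusted p = 4.93e-07) and Chd3, a subunit of the NuRD complex, by 0.61 ± 0.08 (adjusted p = 3.34e-06). Trim28 itself was 9.14, 9.36 and 9.67 after and 9.58, 9.77 and 9.97 before weaning (difference -0.39 ± 0.07, adjusted p = 7.6e-05), and Setdb1 had -0.03 ± 0.06 (adjusted p = 0.654). Trim28 and Setdb1 were picked after their values were seen.

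Of the CCR4-NOT and mRNA decay machinery, through which tristetraprolin acts, 21 of 23 genes were measured. Among these 7 fell (33.3%, against 41.8% of all genes) and 3 rose (14.3%, against 31.1%). The other 11 were not called, and the median was -0.03. The deadenylase subunits Pan2 and Pan3 fell by 0.60 ± 0.08 and 0.59 ± 0.10, and Btg1, an antiproliferative partner of the complex, rose by 0.57 ± 0.09 (adjusted p = 2.57e-05). Of 14 messages known as tristetraprolin targets, 5 were measured and 2 rose (40%, against 31.1% of all genes). Fos was 9.68, 10.16 and 10.47 after and 5.92, 7.06 and 7.91 before weaning (difference 3.19 ± 0.18, adjusted p = 1.47e-11), and Myc rose by 0.39 ± 0.08 (adjusted p = 3e-04). The other 3 were not called.

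Cell type markers moved between the same stages. All 10 fibroblast and matrix markers were called lower, with a mean level of 8.60 to 9.22 on the later and 9.76 to 10.29 on the earlier arrays. The 4 measured markers of enteric neurons and glia were lower, at 5.09 to 5.51 after and 6.13 to 6.66 before weaning, as were the 4 measured endothelial markers, at 5.20 to 5.64 after and 6.07 to 6.61 before. All 3 measured T cell markers were higher (4.40 to 7.72 after, 3.48 to 3.86 before), and all 4 measured B and plasma cell markers were higher (6.77 to 10.37 after, 3.70 to 4.01 before). Of the 6 enterocyte markers 5 were higher and 1 lower. All 5 Paneth and all 7 goblet cell markers were higher, at 10.82 to 11.26 and 10.69 to 11.23 after, against 6.28 to 7.67 and 8.29 to 8.58 before. Of the 6 smooth muscle markers 2 were higher and 1 lower, and of the 4 measured macrophage markers 2 were lower. Of lists for neighbouring tissue, 2 measured hepatocyte markers were lower (4.05 to 4.80 after, 8.58 to 9.58 before), and of 4 measured adipocyte markers 3 were higher and 1 lower (7.38 to 8.82 after, 4.58 to 7.12 before). The list of pancreatic acinar cells had 2 measured markers, 1 higher and 1 not called. Of the 6 measured markers of cycling cells 5 were higher, at 8.09 to 8.49 after and 7.26 to 7.75 before. Before weaning, 2 of the T cell and 1 of the B and plasma cell markers were below the array medians. Measured markers had to reach log2 6 on 3 arrays, so a marker that did so in 1 stage only tends to be higher there by that choice. The neuron and glia, endothelial, T cell, B and plasma cell and hepatocyte lists had means below 6 on all arrays of 1 stage. Their shared directions may therefore come from this choice. The part of these lists in the Zfp differences was not tested.

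Fits with the hybridization group or Xist kept the direction of the split. The poly-A spikes and the rRNA probe sets entered no fit. All 6 later arrays are in the higher hybridization group. The hybridization means do not overlap between the stages, at 9.647 or more after and 9.622 or less before weaning. The hybridization fits therefore cannot separate the stages from these controls, and the part of the spikes and rRNA in the split was not tested. With the hybridization group as a block 52 members were lower and 9 higher, and in the 10 arrays of the higher group alone 46 were lower and 10 higher. With Xist as a covariate 57 were lower and 7 higher. Without the day 24 arrays the counts were 59 and 11, and without the day 32 arrays 53 and 10. Calls over all genes were not counted under these settings.

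Members whose age means ran most alike were found by Pearson's r over the 6 age means, as a description in which a shared step between day 11 and day 24 sets most of the value. Zfp618, the largest estimated fall, was most like Zfp503 (r = 0.999), Zfp263 (r = 0.997) and Zfp991 (r = 0.996). Zfp131, the largest rise without overlap, was most like Zfp598 (r = 0.989), Zfp513 (r = 0.972) and Zfp710 (r = 0.954). For these pairs the promoters are printed, as the 250 bases before the start of the gene in RefSeq on GRCm38.p6, 5′ to 3′ on the strand of the gene. Zfp618 lies on the plus strand at chr4:62965317-62965566, Zfp503 on the minus strand at chr14:21989602-21989851, Zfp131 on the minus strand at chr13:119790733-119790982 and Zfp598 on the plus strand at chr17:24669437-24669686. Capitals mark matches, on either strand and with overlaps joined, to the GC box GGGCGG, the CCAAT box CCAAT, the ETS core CCGGAAG, the TATA box TATAAA, the AP-1 site TGAGTCA and the cAMP response core TGACG.
Zfp618: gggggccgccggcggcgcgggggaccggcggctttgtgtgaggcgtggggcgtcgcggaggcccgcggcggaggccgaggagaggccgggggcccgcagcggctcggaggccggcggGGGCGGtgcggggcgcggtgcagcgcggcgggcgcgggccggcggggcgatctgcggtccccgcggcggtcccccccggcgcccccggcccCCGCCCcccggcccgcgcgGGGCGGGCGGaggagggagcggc
Zfp503: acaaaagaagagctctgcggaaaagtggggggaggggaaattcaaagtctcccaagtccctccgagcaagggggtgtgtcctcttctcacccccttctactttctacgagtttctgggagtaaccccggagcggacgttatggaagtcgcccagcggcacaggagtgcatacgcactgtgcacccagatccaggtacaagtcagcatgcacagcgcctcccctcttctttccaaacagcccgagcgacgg
Zfp131: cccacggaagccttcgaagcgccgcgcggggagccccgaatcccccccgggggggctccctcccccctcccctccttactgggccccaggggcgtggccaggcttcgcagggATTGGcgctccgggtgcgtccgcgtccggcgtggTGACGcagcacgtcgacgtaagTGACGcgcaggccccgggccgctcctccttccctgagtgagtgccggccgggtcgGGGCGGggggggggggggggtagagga
Zfp598: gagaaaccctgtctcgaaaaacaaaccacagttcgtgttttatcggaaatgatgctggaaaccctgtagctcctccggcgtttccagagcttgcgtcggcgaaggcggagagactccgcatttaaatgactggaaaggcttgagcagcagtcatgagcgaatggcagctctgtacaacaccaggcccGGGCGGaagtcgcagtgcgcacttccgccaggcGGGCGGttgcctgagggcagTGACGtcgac
Both pairs differ in letters. The window of Zfp618 has 88.8% G and C, 48 CpG and 4 GC boxes, while that of Zfp503 has 57.2%, 13 CpG and no match to any of the 6 motifs. The window of Zfp131 holds 1 GC box, 1 CCAAT box and 2 cAMP response cores in 76.4% G and C, and that of Zfp598 holds 2 GC boxes and 1 cAMP response core in 57.2%.

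The relatives Zfp36 and Zfp36l1, which moved in opposite directions, are shown for comparison. Zfp36 lies on the minus strand at chr7:28379229-28379478 and Zfp36l1 on the minus strand at chr12:80113014-80113263.
Zfp36: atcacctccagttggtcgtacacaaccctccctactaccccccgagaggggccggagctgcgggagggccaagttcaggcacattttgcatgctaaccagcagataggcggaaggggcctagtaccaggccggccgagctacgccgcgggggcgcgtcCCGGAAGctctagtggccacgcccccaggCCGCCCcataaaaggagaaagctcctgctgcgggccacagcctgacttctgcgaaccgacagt
Zfp36l1: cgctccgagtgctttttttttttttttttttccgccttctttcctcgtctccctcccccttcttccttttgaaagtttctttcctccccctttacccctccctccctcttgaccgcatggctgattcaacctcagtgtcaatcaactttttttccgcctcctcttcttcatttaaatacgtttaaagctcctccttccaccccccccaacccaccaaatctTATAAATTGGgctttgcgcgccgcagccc
The Zfp36 window holds 1 GC box and 1 ETS core, and the Zfp36l1 window a TATA box joined to a CCAAT box read on the other strand, with 64.8% and 48.4% G and C. A match describes letters and no bound factor.

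RefSeq promoter windows were found for 78 of the 99 members, 48 of those called lower and 9 of those called higher. The GC box was in 60.3% of members' windows, 61.7% of the 7042 windows of genes tested and 32.7% of all 32851 windows. The CCAAT box was in 41% of members' windows, 36% of those of genes tested and 33.8% of all. The ETS core was in 16.7%, 14.6% and 6.91% of members', tested and all windows, the TATA box in 7.69%, 6.53% and 12.4%, the AP-1 site in 3.85%, 2.94% and 4.46%, and the cAMP response core in 35.9%, 28.2% and 17.8%. The members' windows had a median of 14.5 CpG and 58% G and C, against 17 CpG and 60.4% in the genes tested and 6 CpG and 52.4% in all windows.

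Zfp genes often lie in tandem clusters. In the GRCm38.p6 annotation 16 members were on chromosome 7 and 12 on chromosome 17, the fullest chromosomes, and 2 on X, both called lower. Runs of members that are next to each other in the annotation were few. Zfp995, Zfp942 and Zfp943 on chromosome 17 were all called lower (-0.87, -0.45 and -0.39), as were Zfp617 and Zfp961 on chromosome 8 (-0.30 each). The neighbours Zfp236 and Zfp516 on chromosome 18 were called in opposite directions (0.39 and -0.74). Of Zfp692 and Zfp672 on chromosome 11, and of Zfp35 and Zfp24 on chromosome 18, 1 of each pair was called, Zfp672 higher and Zfp24 lower. Neighbouring copies can share sequence, so their probe sets may read each other's transcripts. These runs were picked by position, and the genes in them are named with their values seen.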

How the data were processed

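The deposited log2 values of 45101 Affymetrix probe sets on 18 arrays were used as given. RMA, named in the submitters' processing notes, made them from cDNA primed with a T7 oligo-dT primer, per the labels' protocols. Its options are not given, and no detection calls came with the table. The 64 control probe sets were left out of the tests.

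Genes were named from the platform annotation (34945 probe sets with 1 symbol). Those annotated to more than 1 gene were dropped, 27 of them with a Zfp symbol. Of 18193 genes, 8630 had a probe set at log2 6 on at least 3 arrays, and the one with the highest mean entered lmFit and eBayes (limma 3.58.1, R 4.3.3). Age was a factor with 6 levels over all arrays, which left 12 residual degrees of freedom and a median residual SD of 0.176. Genes were called at a Benjamini-Hochberg adjusted p below 0.05 over all genes tested. Errors of differences are SE from the fit. The fit was checked on simulated data.

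The members and gene lists were chosen with earlier results of these data known. Named genes were the 12 largest rises and falls without overlap of arrays, up to 4 a direction in the other comparisons by adjusted p, the 5 probe sets with the highest mean, the 5 largest F test p, up to 3 per list, and a fixed set of members. Alternatives were other filters, probe set choices, normalizations, eBayes options, array weights, covariates and each array left out. The precision is limited by 3 arrays per age. Protein sequences were not used here.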

Additional observations from a re-analysis of the deposited data

How the results depend on the processing

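The split between the stages kept its direction under every alternative run, with 46 to 65 of 99 members lower and 7 to 12 higher where all members could be fitted. Under the alternatives, calls over all genes were counted only between the stages with no filter on level. The other counts here and with arrays left out therefore describe the members alone. A filter at log2 7, which leaves 41 members, gave 25 lower and 6 higher after against before weaning, 1 higher and 0 lower on day 11 against day 4 (limma, with 7 and 3 at an unadjusted p below 0.05), 5 higher and 21 lower on day 24 against day 11, 5 higher on day 32 against day 24, and 31 in the F test. With Xist as a covariate 7 members were higher after weaning and 5 higher on day 32. On day 11 against day 4, 2 members were lower under quantile normalization, median centring or the hybridization block, 6 were higher and 5 lower with array weights, and 0 in either direction with only the ages compared (limma, with 9 higher and 6 lower at an unadjusted p below 0.05). On day 32 against day 24, 5 were higher with no filter, 4 with quantile normalization, 3 lower with array weights, and 4 higher and 1 lower with only the ages compared. The causes were not tested, beyond the fewer genes or arrays that some settings hold.

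Leaving out each array in turn gave 9 to 12 members higher and 58 to 63 lower after weaning, with a median of -0.39 to -0.35. It gave 1 to 3 higher and 0 to 2 lower on day 11 (with 9 to 13 and 3 to 10 at an unadjusted p below 0.05), 7 to 13 higher and 43 to 48 lower on day 24, 3 to 8 higher and 1 to 8 lower on day 32, and 64 to 72 in the F test. The alternatives added after seeing the data were the higher hybridization group alone and the fits without day 24 or day 32.

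Of 50 results on named genes, 36 kept direction and call under every alternative. Zfp36l2, not called between the stages, turned to 0.0186 with Xist as a covariate, 0.31 without day 24 and 0.0172 without day 24 replicate 3, while leaving out day 24 replicate 2 gave the lowest value, -0.1654. Zfp207 turned to -0.76 with the mean of its probe sets. No paired analysis was possible because the titles carry animal numbers and no replicate numbers, and a single animal number occurs at more than 1 age (day 7 and day 9), fewer than the 2 that a paired fit needs. Levels near the array medians of 3.88 to 3.97 bound what the falls of dim members can show.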
